A study of Mus musculus with 6 samples.

Results

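The genes of the TGF-beta pathway's core were followed in CT26 tumors of BALB/c mice: the ligands Tgfb1, Tgfb2 and Tgfb3, the receptors Tgfbr1 and Tgfbr2, and the SMADs Smad2, Smad3, Smad4 and Smad7. They were taken by symbol and are 9 of the 23557 genes of the expression table. CT26 cells come from a colon carcinoma of the same strain, and the mice received 500000 cells under the skin. H89, an inhibitor of protein kinase A and of other kinases, was injected intraperitoneally at 10 mg/kg 2 times a week, and control mice received NaCl by the same route. Tumors were taken on day 14 after the cells were injected, 3 of NaCl mice and 3 of H89-treated mice, and the total RNA of each whole tumor was sequenced. The mice were females of 7 weeks. The table holds an estimated read count for each gene and tumor, 29067921, 27067349 and 27883614 counts in all for NaCl tumors 1 to 3 and 28548727, 31958793 and 30936962 for H89-treated tumors 1 to 3. Levels are given as counts per 1000000 counts of the same tumor (CPM), so that 1 count was worth between 0.0313 and 0.0369 CPM. The numbers 1 to 3 name tumors within a group, and the labels do not say whether equal numbers pair tumors.

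TGF-beta is secreted in a latent form and is held in the matrix until it is released. The active ligand binds the type II receptor, encoded by Tgfbr2, which recruits and activates the type I receptor, encoded by Tgfbr1. The type I receptor phosphorylates SMAD2 and SMAD3, which join SMAD4 and enter the nucleus, while SMAD7 is induced by the signal and dampens it at the receptor. In colon tumors the pathway is known for restraining epithelial growth, for matrix production by fibroblasts and for damping T cell responses. The comparison of H89 with NaCl asks which transcripts of this pathway differed in amount between the treated and the control tumors. A bulk transcript level does not measure active ligand or SMAD phosphorylation, and fewer cells of a type cannot be told apart from less RNA per cell.

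Of the core genes, Tgfb1 stood lower in the H89-treated tumors, the other 2 ligands, the 2 receptors and the 4 SMADs did not reach an unadjusted p under 0.05, and 0 of the 9 reached an adjusted p under 0.05. The comparison used edgeR's quasi-likelihood test on the 13118 genes that averaged 0.5 CPM or more, with Benjamini-Hochberg adjustment over all of them, and all 9 core genes were among these. By that test 1.59% of all genes had an adjusted p under 0.05 and 25.0% an unadjusted p under 0.05, 11.9% lower and 13.1% higher with H89, so that 1 of 9 at the unadjusted p is no more than the share seen over all genes. The median log2 fold change of H89 against NaCl was -0.06 over the 9 core genes and 0.004 over all genes. DESeq2's Wald test, run as an alternative, called 1 of the 9, Tgfb1, and 10.6% of the same 13118 genes.

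**Figure D1:**
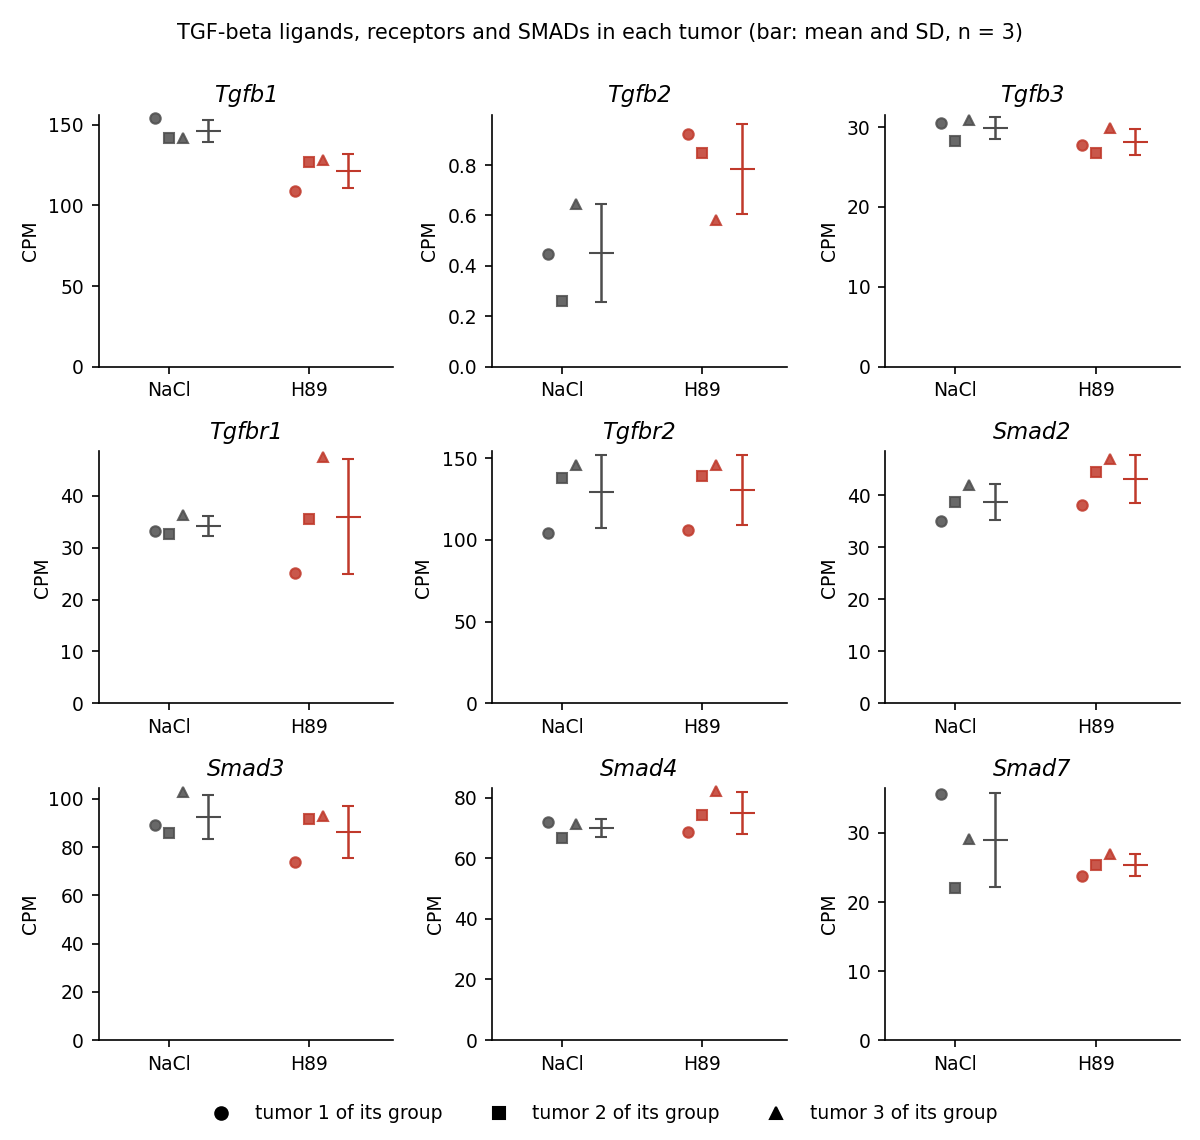
Level of each TGF-beta ligand, receptor and SMAD gene in each tumor, in CPM on an axis from 0, with NaCl tumors in grey and H89-treated tumors in red; symbols mark the tumor's number within its group and bars the mean and SD of 3 tumors. Tgfb1 lies between 109 and 128 CPM in the H89-treated tumors, below the NaCl tumors at 142 to 154 CPM, and the groups overlap for the other 8 genes.

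Tgfb1, the isoform made by most immune and stromal cells, lies on chromosome 7 from 25687002 to 25705077 in GRCm38, on the plus strand, and overlaps no other annotated gene. Its level was 154, 142 and 142 CPM in NaCl tumors 1 to 3 and 109, 127 and 128 CPM in H89-treated tumors 1 to 3. The groups did not overlap, H89-treated tumor 1 was the lowest, and the same held after TMM scaling of the libraries. Over all genes, 30.5% did not overlap between groups in CPM, 10.0% with the H89 values below and 20.5% with the H89 values above. After TMM scaling it was 30.6%, of which 15.5% below and 15.2% above. The means were 146 ± 7.32 CPM (SD, n = 3) in NaCl and 122 ± 10.8 CPM (SD, n = 3) in H89-treated tumors. The log2 fold change was -0.34 (standard error 0.09, 95% interval -0.54 to -0.13, edgeR unadjusted p = 0.00518, adjusted p = 0.0827), a fitted change of -20.8% with an interval from -31.2% to -8.79%. DESeq2's Wald test put the adjusted p at 0.0152, while over all alternatives it ranged from 0.0152 to 0.178 and the log2 fold change from -0.37 to -0.26. Over all genes tested, 6.24% had a smaller p than Tgfb1. The exact two-sided permutation test gave p = 0.1, which is the smallest that 3 tumors against 3 allow.

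Tgfb3, which is best known from palate and lung development, lies on chromosome 12 from 86056745 to 86079041, on the minus strand. Its level was 30.5, 28.3 and 30.9 CPM in NaCl tumors and 27.7, 26.8 and 29.9 CPM in H89-treated tumors. The groups overlapped in CPM through H89-treated tumor 3 and did not overlap after TMM scaling, where all 3 H89-treated tumors were lower. The log2 fold change was -0.16 (standard error 0.09, 95% interval -0.37 to 0.05, edgeR adjusted p = 0.308). The gene shares stretches with 2 annotated transcripts of the opposite strand, whose reads could not be told apart from its own if strand was not used in counting.

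Tgfb2 was close to the lower end of what was tested. It lies on chromosome 1 from 186622792 to 186705989, on the minus strand, and encodes an isoform that needs the co-receptor betaglycan for strong binding to the type II receptor. Its level was 0.447, 0.259 and 0.646 CPM in NaCl tumors and 0.924, 0.848 and 0.582 CPM in H89-treated tumors, which corresponds to between 7 and 27 counts. H89-treated tumors 1 and 2 were above all NaCl tumors and H89-treated tumor 3 was within their range. The log2 fold change was 0.71 (standard error 0.40, 95% interval -0.21 to 1.64, edgeR adjusted p = 0.301), and it ranged from 0.20 under quantile normalization to 1.05 without NaCl tumor 3, with 0.43 without NaCl tumor 2. Tgfb2 also shares 124 exon bases with an annotated transcript of the opposite strand. With these tumors neither a decrease of -13.4% nor an increase of 211% lies outside the interval.

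Counted per length, Tgfb1 made up most of the ligand message. CPM were divided by the length in kb of each gene's longest coding transcript, and Tgfb1 then took 88.2% ± 0.604 (SD, n = 3) of the summed level of the 3 ligands in NaCl tumors and 86.8% ± 1.08 (SD, n = 3) with H89. Tgfb3 took 11.6% ± 0.558 and 13.0% ± 1.05, and Tgfb2 took 0.116% ± 0.0509 and 0.242% ± 0.0710 (each SD, n = 3). These shares overlapped between groups. With the length of all annotated exons in place of the longest transcript, Tgfb1 took 76.4% in NaCl and 74.0% in H89-treated tumors, since its annotated exons span more than its longest coding transcript. The summed ligand level per length was 80.1, 73.5 and 74.4 CPM per kb in NaCl tumors and 58.5, 66.6 and 68.0 CPM per kb in H89-treated tumors. The groups did not overlap in that sum, which Tgfb1 dominates and which is therefore no separate result.

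The 250 bases before the annotated start of the most and the least abundant ligand gene are shown because these genes differ most in level among the 9, in sequences of RefSeq for GRCm38.p6. They are written 5′ to 3′ along the gene, in lower case, with matches in capitals for the TATA box (TATAAA), the cAMP response element half-site (TGACG), the SMAD box (CAGAC) and the GC box (GGGCGG), each searched on both strands.
Tgfb1, chr7:25686752-25687001, plus strand: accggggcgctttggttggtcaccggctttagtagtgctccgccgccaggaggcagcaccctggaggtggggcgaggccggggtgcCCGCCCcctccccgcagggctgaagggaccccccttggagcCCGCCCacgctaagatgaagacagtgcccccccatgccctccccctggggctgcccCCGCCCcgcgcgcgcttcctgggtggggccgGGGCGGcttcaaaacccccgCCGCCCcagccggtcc
Tgfb2, chr1:186705990-186706239, minus strand: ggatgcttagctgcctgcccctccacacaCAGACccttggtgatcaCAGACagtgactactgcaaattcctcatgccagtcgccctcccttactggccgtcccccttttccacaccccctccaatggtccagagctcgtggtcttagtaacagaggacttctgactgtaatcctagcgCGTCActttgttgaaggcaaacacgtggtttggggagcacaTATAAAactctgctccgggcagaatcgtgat
In the Tgfb1 window 5 GC boxes were found and no match to the other motifs, and 75.2% of its bases were G or C, a share that is lower in 96.1% of all 32851 windows of this length. The Tgfb2 window held 1 TATA box that begins 31 bases before the start, 1 cAMP response element half-site and 2 SMAD boxes, with 53.6% G or C. Of all windows, 12.4% held a TATA box, 17.8% the half-site, 42.2% a SMAD box and 32.7% a GC box, and none of the matches shown overlaps a match to another motif. A match only says that these letters occur, and the absence of one says nothing of the factor. Of the 9 genes, 5 had a window in the table.

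**Figure D2:**
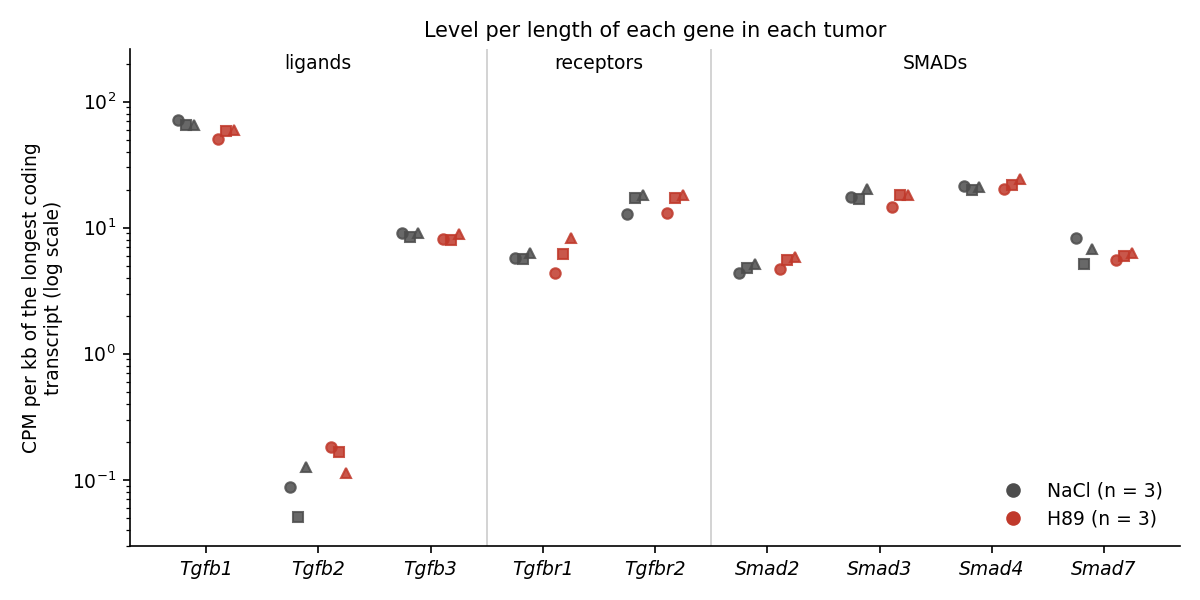
CPM per kb of the longest coding transcript on a log axis for each of the 9 genes, 1 point a tumor, with NaCl in grey and H89 in red. Tgfb1 lies at 50.2 CPM per kb or above in every tumor, Tgfb2 at 0.181 or below, and the receptors and SMADs between 4.34 and 24.3.

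Tgfbr2, the type II receptor gene on chromosome 9 from 116084293 to 116175360, had 104, 138 and 146 CPM in NaCl tumors and 106, 139 and 146 CPM in H89-treated tumors. The sets of 3 values nearly coincided, with 1 low tumor in each group. The means were 129 ± 22.2 and 130.4 ± 21.5 CPM (each SD, n = 3), and the fitted log2 fold change was -0.06 (standard error 0.14, 95% interval -0.39 to 0.27, edgeR adjusted p = 0.826). The fitted sign is the opposite of that of the means because TMM scaling, with factors from 0.956 to 0.991 in NaCl and from 0.983 to 1.06 in H89-treated tumors, raises the NaCl levels and lowers those of H89-treated tumors 2 and 3.

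Tgfbr1, the type I receptor gene on chromosome 4 from 47353222 to 47414931, differed in spread more than in mean. Its level was 33.3, 32.7 and 36.3 CPM in NaCl tumors and 25.1, 35.5 and 47.4 CPM in H89-treated tumors. H89-treated tumor 1 was below and H89-treated tumor 3 above all NaCl tumors. The coefficient of variation was 5.55% in NaCl tumors and 30.9% with H89, and the difference in spread was not tested. The log2 fold change was -0.00 (standard error 0.18, 95% interval -0.43 to 0.42, edgeR adjusted p = 0.995). The ratio of Tgfbr2 to Tgfbr1 per length was 2.69 ± 0.414 in NaCl tumors and 2.66 ± 0.416 with H89 (each SD, n = 3), with overlapping groups.

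Among the receptor-activated SMADs, Smad3 was the more abundant per length. Smad3 lies on chromosome 9 from 63646767 to 63757994, and its level was 89.1, 85.9 and 103 CPM in NaCl tumors and 73.9, 91.7 and 93.0 CPM in H89-treated tumors. H89-treated tumor 1 was the lowest, and H89-treated tumors 2 and 3 were within the NaCl range. The log2 fold change was -0.18 (standard error 0.10, 95% interval -0.42 to 0.06, edgeR adjusted p = 0.325).
Smad2, on chromosome 18 from 76241580 to 76310963, had 35.1, 38.7 and 42.0 CPM in NaCl tumors and 38.0, 44.5 and 46.9 CPM in H89-treated tumors. The groups overlapped through H89-treated tumor 1, and the log2 fold change was 0.09 (standard error 0.10, 95% interval -0.13 to 0.31, edgeR adjusted p = 0.595).
The ratio of Smad3 to Smad2 per length was 4.03, 3.53 and 3.90 in NaCl tumors and 3.09, 3.27 and 3.15 in H89-treated tumors. It was lower in each H89-treated tumor than in any NaCl tumor, although neither gene alone separated the groups, and this ratio was chosen after its values were seen and has no test.

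Smad4, the shared partner of the receptor-activated SMADs, lies on chromosome 18 from 73639009 to 73703780. Its level was 72.1, 66.6 and 71.4 CPM in NaCl tumors and 68.5, 74.1 and 82.3 CPM in H89-treated tumors. The groups overlapped, H89-treated tumor 3 was the highest, and the log2 fold change was 0.03 (standard error 0.08, 95% interval -0.17 to 0.22, edgeR adjusted p = 0.875).
Smad7, the inhibitory SMAD, lies on the same chromosome from 75367529 to 75395935. Its level was 35.7, 22.1 and 29.2 CPM in NaCl tumors and 23.7, 25.4 and 26.9 CPM in H89-treated tumors. NaCl tumor 2 was the lowest of all 6 and the other NaCl tumors the highest, so that the H89-treated tumors lay inside the NaCl range. The log2 fold change was -0.27 (standard error 0.17, 95% interval -0.67 to 0.13, edgeR adjusted p = 0.360), and it depended on single NaCl tumors: -0.08 without NaCl tumor 1 (edgeR adjusted p = 0.785) and -0.44 without NaCl tumor 2 (adjusted p = 0.179). The ratio of Smad7 to the sum of Smad2 and Smad3 per length was 0.297 ± 0.0760 in NaCl tumors and 0.267 ± 0.0185 with H89 (each SD, n = 3), with overlapping groups.

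Over all 6 tumors the order by mean level per length was Tgfb1 (61.5 CPM per kb), Smad4 (21.4), Smad3 (17.6), Tgfbr2 (16.0), Tgfb3 (8.58), Smad7 (6.35), Tgfbr1 (6.09), Smad2 (5.05) and Tgfb2 (0.121). By group, Smad7 was above Tgfbr1 in NaCl tumors (6.78 and 5.92 CPM per kb) and below it with H89 (5.92 and 6.25). The ranges over tumors of neighbours in this order did not overlap between Tgfb1 and Smad4, between Tgfbr2 and Tgfb3 and between Smad2 and Tgfb2, and overlapped between the others. Dividing by the length of all annotated exons gave the same order, with Tgfb1 at 26.5 CPM per kb and then overlapping Smad4 at 19.5 CPM per kb.

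Of the genes named around the core pathway, Cdkn1a fell and Itgae rose in H89-treated tumors, 2 of the 84 tested genes in 8 lists of ligands, receptors, regulators and targets. Of these 84, 13 were higher and 12 lower at an unadjusted p under 0.05, their median log2 fold change was 0.02, and over all genes 13.1% were higher and 11.9% lower at that p. The 2 adjusted calls compare with 1.59% of all genes. Without any 1 of the 6 tumors, 0 of the 84 genes had an adjusted p under 0.05 in edgeR, where all 13118 genes gave between 0 and 12. DESeq2's Wald test called 15 of them, and 10.6% of the same 13118 genes.

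**Figure D3:**
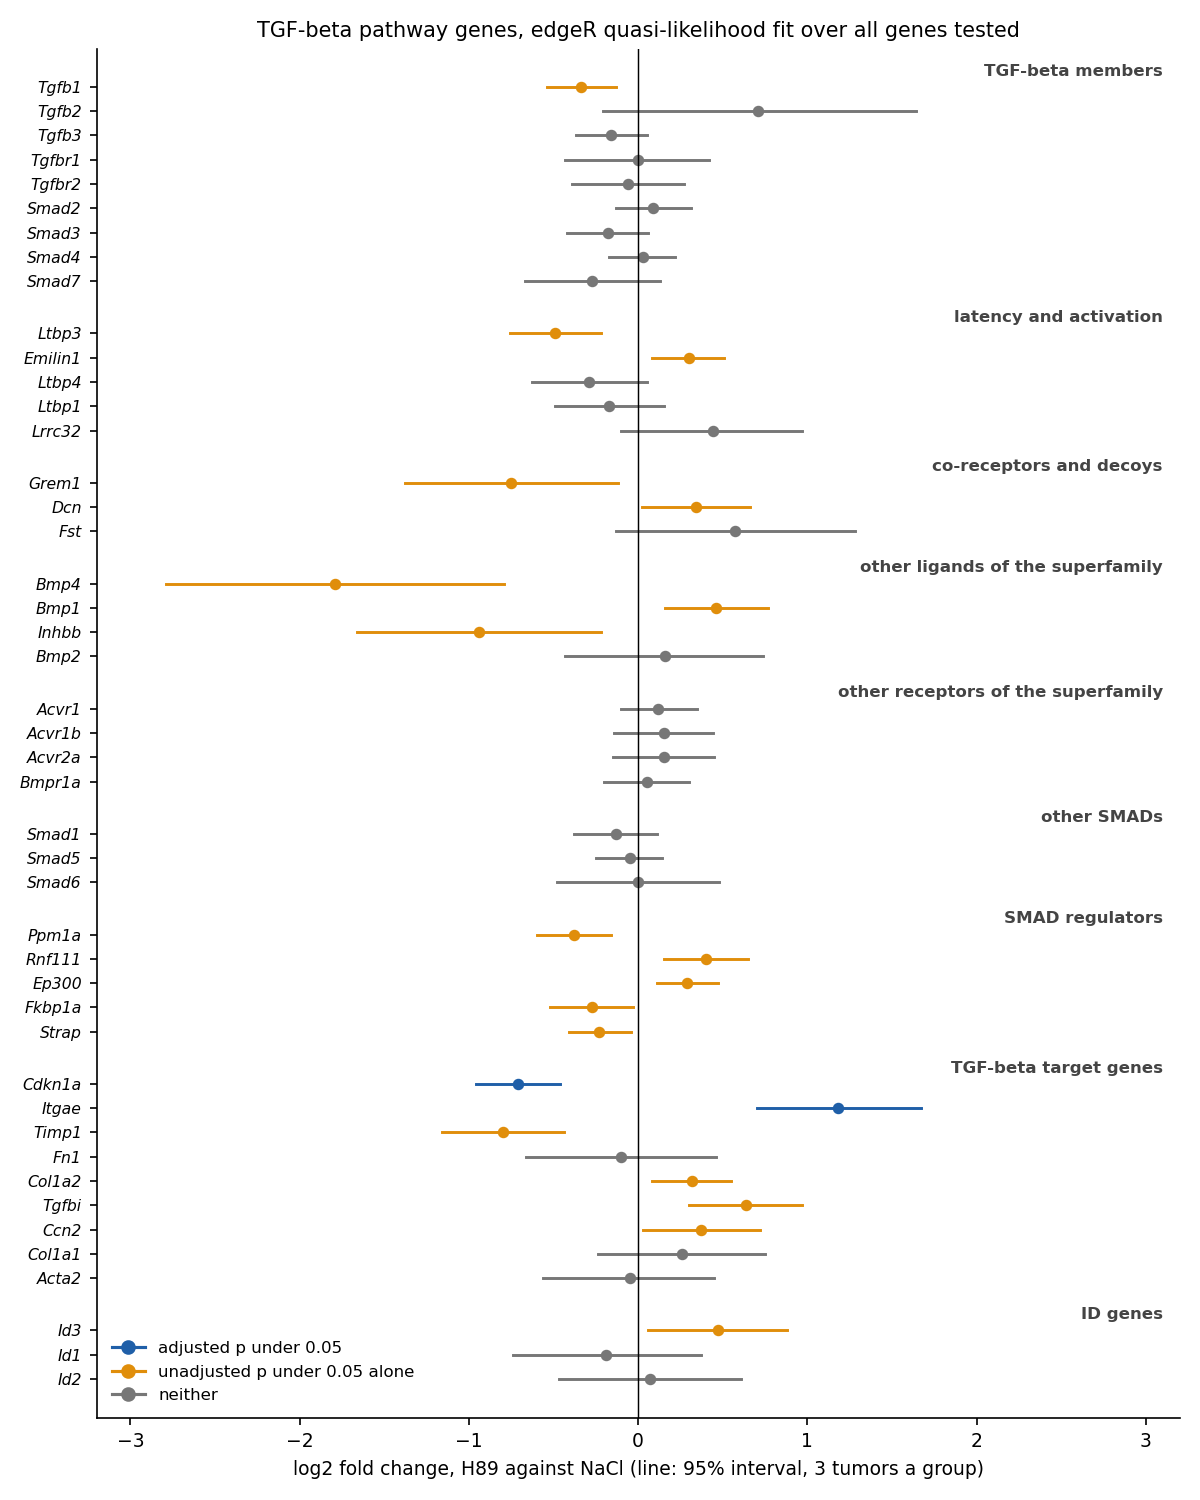
Log2 fold change of H89 against NaCl with its 95% interval for the 9 core genes and the named genes of the other lists, 3 tumors a group. Blue marks an adjusted p under 0.05 (Cdkn1a at -0.71 and Itgae at 1.18), orange an unadjusted p under 0.05 alone, and grey neither.

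Of 12 genes that store and release latent TGF-beta, 11 were tested, and 1 was higher and 1 lower at an unadjusted p under 0.05, where all genes gave 13.1% and 11.9%. By sign 7 were higher and 4 lower, and the median log2 fold change was 0.15. Ltbp3, a latent TGF-beta binding protein of the matrix, had 317, 271 and 286 CPM in NaCl tumors and 182, 229 and 245 CPM in H89-treated tumors. The H89 values were all below the NaCl values, and the log2 difference was -0.49 (standard error 0.12, edgeR adjusted p = 0.0729; 0.00317 by DESeq2, and up to 0.173 over the alternatives). Emilin1, an extracellular glycoprotein that limits the processing of the TGF-beta precursor, averaged 26.5 ± 1.06 and 34.2 ± 2.20 CPM (each SD, n = 3), with a log2 fold change of 0.30 (edgeR adjusted p = 0.110). In CPM the most abundant carriers were Ltbp4, at 594 ± 106 and 513 ± 68.6 CPM, and Ltbp1, at 333 ± 32.4 and 312 ± 64.4 CPM (each SD, n = 3), and their groups overlapped. Lrrc32, which encodes the GARP anchor of regulatory T cells and platelets, had 4.99, 3.22 and 3.23 CPM in NaCl tumors and 4.67, 6.04 and 5.63 CPM in H89-treated tumors, with a log2 fold change of 0.44 (edgeR adjusted p = 0.277). The integrin gene Itgb6 was under the filter and not tested, at 7 to 16 counts a tumor. It had 0.323, 0.292 and 0.252 CPM in NaCl and 0.4, 0.516 and 0.481 CPM in H89-treated tumors. The H89 values were all above the NaCl values, as for 20.5% of the genes tested.

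Among the co-receptors and decoys, 7 of 8 were tested, 1 was higher and 1 lower at an unadjusted p under 0.05 (13.1% and 11.9% of all genes), and the median log2 fold change was 0.04. Grem1, a secreted antagonist of BMPs, had 175, 192 and 265 CPM in NaCl tumors and 77.0, 139 and 182 CPM in H89-treated tumors. The groups overlapped in CPM through H89-treated tumor 3 and not after TMM scaling, and the log2 fold change was -0.75 (95% interval -1.38 to -0.12, edgeR adjusted p = 0.149; 0.0249 by DESeq2, and up to 0.325 over the alternatives). Dcn, the small proteoglycan decorin that binds TGF-beta, had 266, 199.8 and 277 CPM in NaCl and 303, 317 and 367 CPM in H89-treated tumors, with a log2 fold change of 0.34 (edgeR adjusted p = 0.183). Fst, which encodes the activin antagonist follistatin, differed by 0.57 on the log2 scale with overlapping groups (edgeR adjusted p = 0.278).

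Of 9 tested genes named as activin, BMP or GDF genes, 0 had an adjusted p under 0.05 in edgeR (1.59% of all genes). At an unadjusted p under 0.05, 1 was higher, Bmp1, and 2 were lower (13.1% and 11.9% of all genes). The median log2 fold change was -0.02, and -0.22 under quantile normalization. Bmp4, a ligand of the BMP branch, had 1.10, 0.555 and 1.52 CPM in NaCl tumors and 0.315, 0.251 and 0.390 CPM in H89-treated tumors. Every H89-treated tumor was lower than any NaCl tumor, at a log2 fold change of -1.79 on 8 to 42 counts a tumor (95% interval -2.79 to -0.79, edgeR adjusted p = 0.0753; 0.0301 by DESeq2, and up to 0.186 over the alternatives). It was -1.13 under quantile normalization and -0.92 by limma on log2(CPM + 0.5). Inhbb, an activin subunit gene, had 18, 16.4 and 27.4 CPM in NaCl and 6.27, 15.1 and 12.6 CPM in H89-treated tumors, with a log2 fold change of -0.94 (edgeR adjusted p = 0.123; 0.0157 by DESeq2, and up to 0.283 over the alternatives). Bmp1, which despite its name encodes a protease that matures procollagen and helps to release latent TGF-beta, averaged 80.3 ± 8.34 and 116 ± 15.2 CPM (each SD, n = 3), with a log2 fold change of 0.46 (edgeR adjusted p = 0.0964; 0.0267 by DESeq2, and up to 0.228 over the alternatives). Bmp2, the most abundant of these after Bmp1 in CPM, differed by 0.16 on the log2 scale with an adjusted p of 0.734 in edgeR.

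The receptors and SMADs of the activin and BMP branches had small differences. Of 7 tested receptors 0 had an unadjusted p under 0.05, against 25.0% of all genes in edgeR and also 0 by an adjusted p in DESeq2, and their median log2 fold change was 0.12. Acvr1, a type I receptor of the BMP branch, averaged 55.3 ± 5.41 and 63.4 ± 4.03 CPM, Bmpr1a 55.9 ± 3.69 and 61.0 ± 10.3 CPM, Acvr1b 20.2 ± 1.55 and 23.5 ± 3.24 CPM, and Acvr2a 16.6 ± 1.54 and 19.4 ± 3.12 CPM (each SD, n = 3), with log2 fold changes between 0.05 and 0.15. Smad1 and Smad5, which carry BMP signals, differed by -0.13 and -0.05 on the log2 scale, and the inhibitory Smad6 by 0.00, with edgeR adjusted p from 0.469 to 0.997. The ID genes, classical BMP responders, were tested for 3 of 4. Id3 averaged 3.96 ± 0.301 and 5.73 ± 0.679 CPM (each SD, n = 3; log2 fold change 0.47, edgeR adjusted p = 0.160). Id1 and Id2 had overlapping groups and log2 fold changes of -0.19 and 0.07.

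Regulators of SMADs included 20 tested genes, 2 higher and 5 lower at an unadjusted p under 0.05 (13.1% and 11.9% of all genes), with a median log2 fold change of -0.00. Ppm1a, a phosphatase that removes the activating phosphate from SMAD2 and SMAD3, had 93.2, 92.4 and 108 CPM in NaCl tumors and 70.1, 80.4 and 86.7 CPM in H89-treated tumors. All H89 values were lower, by -0.38 on the log2 scale (standard error 0.09, edgeR adjusted p = 0.0800; 0.0123 by DESeq2, and up to 0.190 over the alternatives). Rnf111, the ubiquitin ligase Arkadia that degrades SMAD7 and SMAD corepressors, had 21.4, 24.9 and 24.6 CPM in NaCl and 27.6, 34.6 and 36.0 CPM in H89-treated tumors. All H89 values were higher, by 0.40 on the log2 scale (standard error 0.11, edgeR adjusted p = 0.0883; 0.0495 by DESeq2, and up to 0.225 over the alternatives). Ep300, a histone acetyltransferase and SMAD coactivator, differed by 0.29 (edgeR adjusted p = 0.0890). Tgif1, a SMAD corepressor gene named after its values were seen, had 109, 120.1 and 127 CPM in NaCl and 67.7, 102 and 106 CPM in H89-treated tumors (log2 fold change -0.45, edgeR adjusted p = 0.121; 0.0385 by DESeq2). The most abundant regulators were Fkbp1a, whose product binds the type I receptor and keeps it inactive, and Strap, a receptor-bound inhibitor. Fkbp1a averaged 534 ± 26.0 and 463 ± 33.4 CPM and Strap 227 ± 17.3 and 203 ± 4.90 CPM (each SD, n = 3). Their log2 fold changes were -0.27 and -0.23, with edgeR adjusted p of 0.169 and 0.147.

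Genes known to be induced by TGF-beta numbered 24 tested, of which 7 were higher and 3 lower at an unadjusted p under 0.05, and 14 had a larger p. All genes gave 13.1% and 11.9% at that p. By the adjusted p 1 rose and 1 fell, against 1.59% of all genes. Their median log2 fold change was -0.05 (0.05 under quantile normalization with limma), beside 0.004 over all genes, and the CPM of 8 were above and of 3 below those of NaCl without overlap, where all genes gave 20.5% and 10.0%. After TMM scaling it was 6 above and 4 below, where all genes gave 15.2% and 15.5%.

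Cdkn1a, which encodes the cell cycle inhibitor p21 and is also a target of p53, lies on chromosome 17 from 29090976 to 29100727. Its level was 333, 314 and 295 CPM in NaCl tumors and 204, 176 and 224 CPM in H89-treated tumors. It fell in every H89-treated tumor below the NaCl range, by 0.71 on the log2 scale (standard error 0.11, 95% interval -0.96 to -0.46, edgeR adjusted p = 0.0407; 5.67e-07 by DESeq2, and up to 0.142 over the alternatives). The exact permutation p was 0.1, the smallest possible. Leaving out 1 tumor at a time gave edgeR adjusted p from 0.0663 to 0.142 and log2 fold changes from -0.77 to -0.62. The call was thus lost while the fold change stayed similar. In these smaller designs between 0 and 12 of all genes had an adjusted p under 0.05.
Itgae, which encodes the integrin chain CD103 of tissue-resident T cells and some dendritic cells, lies on chromosome 11 from 73090583 to 73147446. Its level was 1.07, 1.18 and 1.11 CPM in NaCl tumors and 2.35, 2.75 and 2.94 CPM in H89-treated tumors. It rose in all 3, with a log2 fold change of 1.18 (standard error 0.21, 95% interval 0.70 to 1.67, edgeR adjusted p = 0.0443; 0.0064 by DESeq2, and up to 0.145 over the alternatives). The exact permutation p was again 0.1. Without 1 tumor at a time the edgeR adjusted p lay between 0.0663 and 0.145, with log2 fold changes from 1.14 to 1.24. Under quantile normalization with limma the adjusted p was 0.0905, with a log2 fold change of 0.67.

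**Figure D4:**
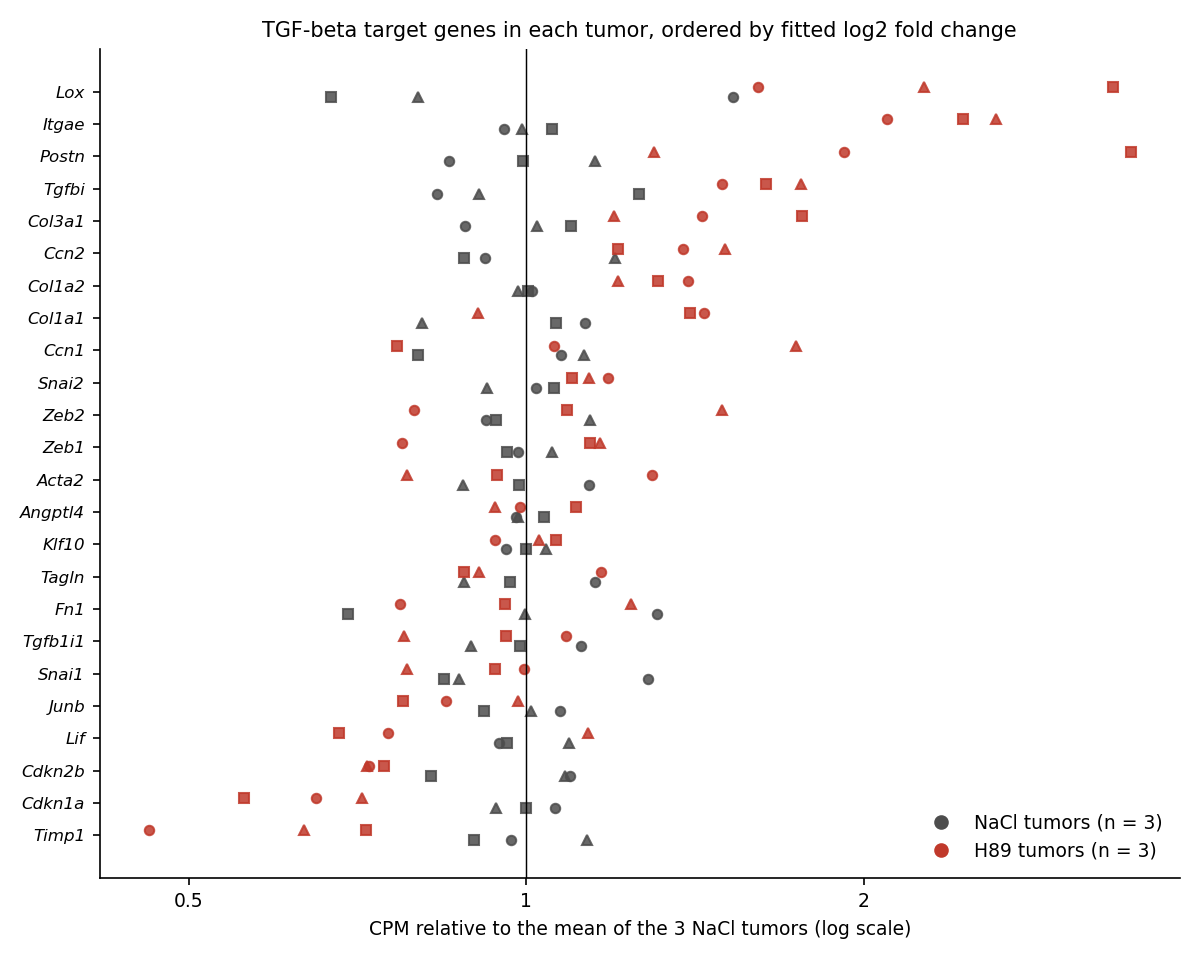
CPM of the 24 TGF-beta target genes in each tumor relative to the mean of the 3 NaCl tumors, on a log axis, with NaCl tumors in grey, H89-treated tumors in red and genes ordered by the fitted log2 fold change. Itgae near the top and Timp1 and Cdkn1a at the bottom separate the groups, while Acta2 and Klf10 lie around 1 in both.

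Several of the targets encode matrix proteins. Tgfbi, a matrix protein named for its induction by TGF-beta, had 81.8, 124 and 89.2 CPM in NaCl tumors and 147, 161 and 173 CPM in H89-treated tumors. The groups did not overlap, and the fitted log2 difference was 0.64 (standard error 0.14, edgeR adjusted p = 0.0679; 0.00200 by DESeq2, and up to 0.179 over the alternatives). Col1a2, a chain of type I collagen and after Fn1 the most abundant target, had 1423, 1412 and 1383 CPM in NaCl and 1960, 1845 and 1698 CPM in H89-treated tumors, with a log2 fold change of 0.32 (edgeR adjusted p = 0.120). Its partner chain Col1a1 overlapped between groups through H89-treated tumor 3 at 487 CPM, with a log2 fold change of 0.26 (edgeR adjusted p = 0.485). Ccn2, connective tissue growth factor, had 14.3, 13.7 and 18.7 CPM in NaCl and 21.5, 18.8 and 23.4 CPM in H89-treated tumors, with a log2 fold change of 0.37 (edgeR adjusted p = 0.178). Timp1, an inhibitor of matrix metalloproteases, went the other way, with 644, 597 and 752 CPM in NaCl and 306, 478 and 421 CPM in H89-treated tumors. The fitted log2 difference was -0.80 (standard error 0.16, edgeR adjusted p = 0.0517; 0.0387 without the filter on CPM, 0.0474 and 0.0485 by limma on log2(CPM + 0.5) and on log2(CPM + 0.1), 4.39e-05 by DESeq2, and up to 0.151 over the alternatives).

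Acta2 and Fn1 did not separate the groups. Acta2, smooth muscle actin of myofibroblasts, averaged 15.8 ± 2.06 and 15.9 ± 4.15 CPM (each SD, n = 3), with a log2 fold change of -0.05 (95% interval -0.56 to 0.45). Fn1, fibronectin and the most abundant target, had 3339, 1771 and 2545 CPM in NaCl and 1971, 2443 and 3167 CPM in H89-treated tumors, with a log2 fold change of -0.10 (95% interval -0.66 to 0.46, edgeR adjusted p = 0.831).

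Marker genes of cell types that make or answer TGF-beta were summed in each tumor. The 8 fibroblast markers summed to 287, 232 and 253 CPM in NaCl tumors and 290.3, 327 and 318 CPM in H89-treated tumors. All 8 were above 0 and tested, and Pdgfrb was the most abundant at a mean of 96.2 CPM. At an unadjusted p under 0.05, Pdgfrb and Col6a3 were higher and Pdpn lower (13.1% and 11.9% of all genes). The sum was higher in each H89-treated tumor in CPM, but not after TMM scaling, where NaCl tumor 1 at 299.9 was above H89-treated tumors 1 and 3 at 295 and 299, nor without Pdgfrb. The part of fibroblasts in the matrix genes was not tested. The 8 macrophage markers, led by Lyz2, summed to 1891, 2996 and 2583 CPM in NaCl and 2271, 2362 and 2949 CPM in H89-treated tumors. Of these 8, 0 had an unadjusted p under 0.05 (25.0% of all genes).

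Itgae is expressed by some T cells. The 7 T cell markers in the table summed to 21.4, 12.2 and 10.6 CPM in NaCl tumors and 37.7, 21.4 and 61.5 CPM in H89-treated tumors, led by Cd8a at a mean of 6.66 CPM, with none at 0. Of these 7, 5 were higher in edgeR at an unadjusted p under 0.05 (13.1% of all genes) and 0 at an adjusted p (1.59% of all genes). DESeq2's Wald test put the adjusted p at 0.00511 for Cd3g, 0.0298 for Cd5 and 0.0489 for Cd3d, and above 0.05 for the others. It called 10.6% of all genes. The median log2 fold change of the 7 markers was 1.37 (0.86 under quantile normalization). In CPM the summed levels of NaCl tumor 1 and H89-treated tumor 2 were the same to the digits given. After TMM scaling the groups overlapped in this sum, with NaCl tumor 1 at 22.3 and H89-treated tumor 2 at 20.8, as they did in CPM without Cd8a. The 6 regulatory T cell markers overlapped in their sum, at 15.7, 7.24 and 4.47 CPM in NaCl and 14.7, 13.8 and 17.6 CPM in H89-treated tumors, with Ccr8 at 0 in NaCl tumor 3. Without Il2ra, in CPM the most abundant of the regulatory T cell markers, the sums did not overlap. They were then 9.05, 5.23 and 2.62 CPM in NaCl and 11.9, 10.3 and 12.8 CPM in H89-treated tumors. Of the 5 tested regulatory T cell markers, 1, Ikzf2, was higher at an unadjusted p under 0.05 in edgeR (13.1% of all genes) and 0 at an adjusted p (1.59% of all genes). By sign all 5 were higher, with a median log2 fold change of 1.04 (0.56 under quantile normalization), and DESeq2's adjusted p were all above 0.05. Foxp3, the lineage factor of regulatory T cells, had 2.89, 1.69 and 0.579 CPM in NaCl and 4.18, 4.20 and 3.15 CPM in H89-treated tumors, at 16 to 134 counts a tumor. The H89 values were above without overlap in CPM, as for 20.5% of all genes, and overlapped after TMM scaling. Its log2 difference was 1.08 (95% interval -0.04 to 2.20, edgeR adjusted p = 0.213), with 0.67 without NaCl tumor 3 and 1.71 without NaCl tumor 1. Foxp3 shares exon bases with 4 annotated genes, Flicr on the same strand among them. The 6 NK cell markers, led by Gzma and with Klra8 at 0 in every tumor, summed to 33.4, 27.9 and 9.08 CPM in NaCl and 51.1, 31.9 and 74.3 CPM in H89-treated tumors, with overlapping groups. Without Gzma the sums did not overlap, at 10.1, 7.76 and 3.8 CPM in NaCl and 17.8, 10.9 and 26.3 CPM in H89-treated tumors. Of the 5 tested NK cell markers, 3 were higher at an unadjusted p under 0.05 in edgeR (13.1% of all genes) and 0 at an adjusted p (1.59% of all genes). By sign all 5 were higher, with a median log2 fold change of 1.21 (1.01 under quantile normalization). DESeq2's Wald test put the adjusted p at 0.00405 for Klre1 and 0.0111 for Ncr1, and above 0.05 for the others. The part of more T or NK cells in the values of Itgae was not tested.

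Platelets carry TGF-beta 1 in their granules, and 6 platelet and megakaryocyte markers were summed. They came to 46.6, 30.9 and 36.6 CPM in NaCl tumors and 23.4, 27.3 and 22.8 CPM in H89-treated tumors, without overlap in CPM or after TMM scaling and with none at 0 in every tumor. The sum is led by Pf4, a chemokine gene that some macrophages also express. Pf4 had a log2 fold change of -1.14 (adjusted p = 0.0593 in edgeR and 7.79e-05 by DESeq2). Ppbp followed at -1.02 (adjusted p = 0.116 in edgeR and 0.124 by DESeq2). Without Pf4 the sums overlapped, at 16.2, 12 and 11.8 CPM in NaCl tumors and 13.0, 11.9 and 13.1 CPM with H89. Itga2b had a log2 fold change of -0.07 (edgeR adjusted p = 0.807), and Gp1bb, most of whose exon bases are shared with Sept5 on the same strand, of 0.04 (adjusted p = 0.964). The part of these cells in the Tgfb1 values was not tested.

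**Figure D5:**
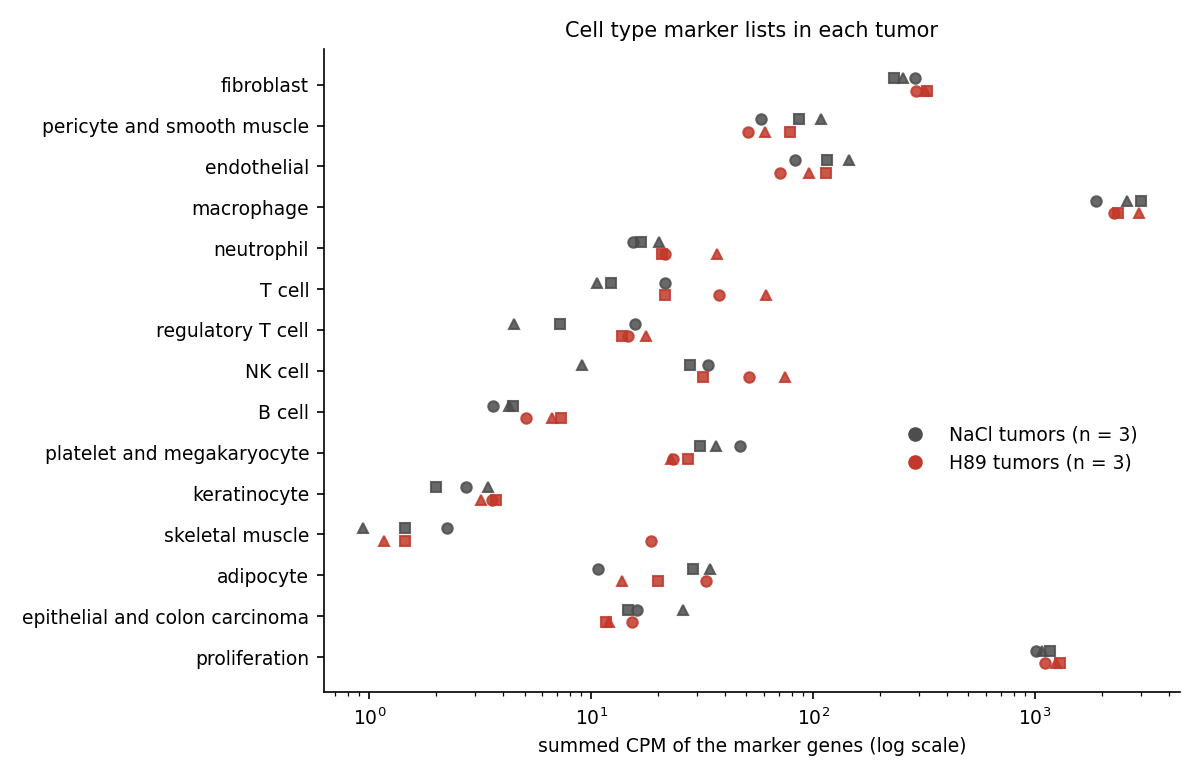
Summed CPM of 15 lists of cell type markers in each tumor, on a log axis, with NaCl tumors in grey and H89-treated tumors in red. In these CPM, platelet sums are lower and fibroblast, neutrophil, T cell and B cell sums higher in all 3 H89-treated tumors, of which the platelet and B cell sums stay apart after TMM scaling and the B cell sum alone without its most abundant gene, and skeletal muscle markers stand out in H89-treated tumor 1 at 18.5 CPM. The T cell sums of NaCl tumor 1 and H89-treated tumor 2 both round to 21.4 CPM. Of all single genes, 30.5% did not overlap between groups in CPM and 30.6% after TMM scaling.

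The epithelial and colon carcinoma markers summed to 16.0, 14.6 and 25.9 CPM in NaCl and 15.2, 11.7 and 12 CPM in H89-treated tumors. Krt18 led the sum and was lower (log2 fold change -1.04, adjusted p = 0.0653 in edgeR and 0.000491 by DESeq2). Krt8 and Krt19 had log2 fold changes of 1.03 and 2.56 (edgeR adjusted p = 0.487 and 0.213). In H89-treated tumor 1 they had 2.14 and 2.49 CPM, against at most 1.33 and 0.378 CPM in the other 5 tumors. Without Krt18 the sums were 3.37, 1.41 and 2.83 CPM and 7.06, 3.69 and 3.24 CPM. The colon marker Cdx2 averaged 0.182 CPM over all 6 tumors, and Epcam had 1.16 CPM in H89-treated tumor 1 and at most 0.097 CPM in the other 5. The 6 proliferation markers summed to 1085 ± 84.6 and 1214 ± 96.6 CPM, the endothelial markers to 114 ± 31.2 and 93.6 ± 21.8 CPM, and the pericyte and smooth muscle markers to 84.3 ± 25.2 and 63.5 ± 14.2 CPM (each SD, n = 3), all with overlapping groups. Neutrophil markers summed to 17.4 ± 2.40 and 26.3 ± 8.96 CPM (each SD, n = 3) with Ly6g at 0. Csf3r made up most of this sum (log2 fold change 0.90, adjusted p = 0.0682 in edgeR and 0.0018 by DESeq2). S100a8 and S100a9 went the other way at -0.85 and -0.70 (edgeR adjusted p = 0.421 and 0.670). The median over the list was -0.20, and without Csf3r the sums overlapped. B cell markers summed to 4.09 ± 0.428 and 6.35 ± 1.13 CPM, and keratinocyte markers to 2.71 ± 0.706 and 3.49 ± 0.287 CPM with Krt1 and Ivl at 0 (each SD, n = 3). Skeletal muscle markers summed to 2.24, 1.44 and 0.932 CPM in NaCl and 18.5, 1.44 and 1.16 CPM in H89-treated tumors, and adipocyte markers to 10.7, 28.7 and 34.4 CPM and to 32.7, 20 and 13.8 CPM. Without Fabp4, which leads the adipocyte sum, it was 0.172, 0.887 and 0.179 CPM and 9.88, 0.501 and 0.323 CPM. H89-treated tumor 1, with the highest muscle sum and the highest adipocyte sum without Fabp4, was also the lowest of the 6 in Tgfb1, Tgfbr1 and Smad3. It was the highest in Tgfb2, at 0.924 CPM, and neither the lowest nor the highest in Tgfb3, Tgfbr2, Smad2, Smad4 and Smad7. The part of muscle or fat tissue in these levels of H89-treated tumor 1 was not tested. Without this tumor, Tgfb1 had a log2 fold change of -0.29 (edgeR adjusted p = 0.117), Tgfbr1 of 0.18 (adjusted p = 0.404) and Smad3 of -0.10 (adjusted p = 0.534).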

How the data were processed

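CT26 tumors were frozen, their total RNA was sequenced on a BGISEQ-500, and the authors deposited a table of 23557 genes in 6 tumors. The submitters' processing notes name kallisto, DESeq2 and GRCm38, with no versions and no roles. The deposited table is called TPM but holds estimated counts: the sums over genes were 27067349 to 31958793 a tumor, not 1000000, and between 58.6% and 61.4% of nonzero values were whole numbers to within 0.01. All 6 tumors were used, and 4612 genes were at 0 throughout.

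Estimated counts were rounded and genes averaging 0.5 CPM or more went into edgeR 4.0.16 under R 4.3.3 (TMM, glmQLFit, glmQLFTest, treatment as the only term, Benjamini-Hochberg adjustment). Standard errors were derived from the fold change and the F statistic, and the 95% interval uses the fit's degrees of freedom. Single genes were also compared by an exact two-sided permutation test of log2(CPM + 0.5) over 20 assignments. Lists have no test. Alternatives were another normalization, quantile normalization and limma 3.58.1, DESeq2 1.42.0, other filters and pseudocounts, and leaving out each tumor, and the fits were tested on simulated data. Gene positions and lengths are those of GENCODE M21, matched by symbol; the annotation used for counting is not given in the sources used here. The T cell marker Trac is not used here.

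All 9 core genes were named. In each other pathway list the genes with an adjusted p under 0.05, the 3 with the smallest p and the 2 with the highest mean CPM were named, and Tgfbi, Ccn2, Col1a1, Acta2, Foxp3, Itgae and Lrrc32 in any case. Of the target genes, 1 is not reported here. Genes named by their p are thus partly chosen for small p. The core genes and the lists were chosen with earlier results of these data known. The labels give no batch, and intervals cover the spread between 3 tumors a group only.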

Additional observations from a re-analysis of the deposited data

How the results depend on the processing

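Tgfb1 was lower with H89 under all 14 alternatives, and 1 of the 9 core genes had an unadjusted p under 0.05 in each of them except without NaCl tumor 2 (2, with Smad7) and without NaCl tumor 3 (2, with Tgfb2). The count of core genes with an adjusted p under 0.05 was 0 in all but DESeq2's Wald test (1). The count over all genes was 208, 113 higher and 95 lower, and 80 under quantile normalization with limma (55 higher and 25 lower), 1392 with DESeq2 on 18837 genes, and 0 to 12 without 1 tumor, where fewer samples are left. The 84 wider pathway genes, counted in this way only after the data were seen, gave 2 calls, 15 with DESeq2, 3 with limma on log2(CPM + 0.5) or log2(CPM + 0.1) and without a filter (Timp1 added), 1 at a mean of at least 5 CPM (which leaves out Itgae), 1 under quantile normalization, and 0 without any 1 tumor. TMM-scaled CPM, added later, separated 2 of the 9 core genes and not 1, Tgfb3 being the second, where 30.6% of all genes did not overlap. The same scaling separated 2 of the 15 marker sums and not 5. Of all single genes, 30.5% did not overlap in CPM and 30.6% after TMM scaling. Without the most abundant gene of each list, also added later, 3 marker sums were apart (B, NK and regulatory T cell). Of these, the B cell sum alone was also apart in CPM with all genes of its list. The cause of the other shifts was not tested. The median log2 fold change of target genes was -0.05, and 0.05 under quantile normalization and -0.05 to 0.06 without 1 tumor, whose cause was not tested.

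The replicate number as a block gave 0 genes with an adjusted p under 0.05, with 3750 at an unadjusted p, and 0 wider pathway genes. The labels do not say whether equally numbered tumors are paired. Deviations of equally numbered tumors correlated at 0.16, 0.06 and -0.03, and not every tumor correlated best with its own number. With so few tumors a group these correlations cannot decide it. With all tumors, 68 results of single core genes kept their direction and side of the threshold, 2 turned and 1 passed it, and without 1 tumor 47 kept and 7 turned. For the other named genes it was 270 kept, 5 turned, 12 passing and 3 lost, and without 1 tumor 199 kept, 11 turned and 12 lost. The turned signs, whose cause was not tested, are as follows. Tgfbr1 was 0.03 at a mean of at least 5 CPM, Tgfbr2 0.01 and Fn1 0.24 under quantile normalization, and Smad6 -0.02 with DESeq2, -0.00 under median ratio normalization, -0.01 without a filter and -0.16 under quantile normalization. Without 1 tumor, Tgfbr1 ranged from -0.22 to 0.18, Tgfbr2 from -0.18 to 0.05, Smad4 from -0.02 to 0.06, Smad6 from -0.15 to 0.09, Acta2 from -0.31 to 0.12, Bmp2 from -0.18 to 0.41, Bmpr1a from -0.05 to 0.14, Fn1 from -0.31 to 0.16 and Id2 from -0.19 to 0.29. Without a turn of sign, Tgfb2 ranged from 0.43 to 1.05 (0.20 under quantile normalization and 0.40 by limma on log2(CPM + 0.5)), Tgfb3 from -0.21 to -0.12, Smad2 from 0.04 to 0.15, Smad3 from -0.24 to -0.10, Smad7 from -0.44 to -0.08, Foxp3 from 0.67 to 1.71, Grem1 from -1.02 to -0.49, Dcn from 0.20 to 0.42, Fst from 0.31 to 0.81, Col1a1 from 0.11 to 0.46, Lrrc32 from 0.32 to 0.70, Acvr1 from 0.04 to 0.18, Acvr1b from 0.06 to 0.23, Acvr2a from 0.09 to 0.25, Id1 from -0.40 to -0.00, Ltbp1 from -0.27 to -0.04, Ltbp4 from -0.37 to -0.11, Smad1 from -0.20 to -0.07 and Smad5 from -0.11 to -0.02. Quantile normalization moved Bmp4 to -1.13, Fkbp1a to -0.09, Ltbp4 to -0.06, Strap to -0.12, Id3 to 0.25, Lrrc32 to 0.24, Col1a1 to 0.44 and Col1a2 to 0.55. Tgfb2 had only 7 to 27 counts a tumor, and the part of depth in its wide interval was not tested. It was left out of the fit at a mean of at least 5 CPM. With exon union lengths, added after the data were seen, the Tgfb1 share of ligand level in NaCl was 76.4% in place of 88.2%, since its annotated exons are longer than its longest coding transcript.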

Other observations

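Among the 9398 tested genes with a mean of at least 10 CPM, those whose log2(CPM + 0.5) ran most alike with the most abundant ligand, receptor and SMAD by CPM were listed, as a description over 6 tumors that share their libraries and groups. For Tgfb1 they were Mast2 (Pearson r 0.996, Spearman rho 0.886), Rbpms2 (0.995 and 0.943) and Ivd (0.993 and 0.943). For Tgfbr2 they were Plk4 (0.995 and 0.943), Man1a2 (0.992 and 0.943) and Ctcf (0.992 and 0.943), and for Smad3 they were Galnt2 (0.999 and 1.000), Golph3l (0.992 and 1.000) and Adamts7 (0.990 and 1.000). An r above 0.95 was reached by 44 genes for Tgfb1, 81 for Tgfbr2 and 44 for Smad3.

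Some genes of the wider pathway were too low to test, and these 5 were chosen after their values were seen. Nog, an antagonist of BMPs, was at 0 in 5 tumors and at 1 count in H89-treated tumor 2. Gdf10 was at 0 in all 3 NaCl tumors and had at most 2 counts in an H89-treated tumor, under the floor of 3 counts. Smad9 had 2 to 7 counts, Bmpr1b 3 to 6 and Id4 1 to 4 counts a tumor.

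The groups did not overlap in CPM for 5 target genes outside the naming rule, and these are given here after their values were seen. Over all genes, 20.5% had the H89 values above and 10.0% below in CPM without overlap. Junb overlapped in CPM but was lower without overlap after TMM scaling (15.5% of all genes). Its log2 fold change was -0.28 (adjusted p = 0.174 in edgeR and 0.106 by DESeq2). Lox, an enzyme that crosslinks collagen, had 15.2, 6.65 and 7.96 CPM in NaCl and 16.0, 33.2 and 22.5 CPM in H89-treated tumors (log2 fold change 1.18, edgeR adjusted p = 0.107; 0.00664 by DESeq2). Postn, the matrix protein periostin, had 4.44, 5.17 and 5.99 CPM in NaCl and 9.98, 18 and 6.76 CPM in H89-treated tumors (log2 fold change 1.09, edgeR adjusted p = 0.111; 0.0154 by DESeq2). Col3a1 had 258, 321 and 299 CPM in NaCl and 420.1, 516 and 350.5 CPM in H89-treated tumors (log2 fold change 0.49, edgeR adjusted p = 0.115; 0.0335 by DESeq2). Snai2, a transcription factor of the epithelial-mesenchymal transition, had 26.1, 27.1 and 23.6 CPM in NaCl and 30.3, 28.1 and 29.1 CPM in H89-treated tumors (log2 fold change 0.12, edgeR adjusted p = 0.487; 0.669 by DESeq2), and its groups overlapped after TMM scaling. Cdkn2b, a cell cycle inhibitor gene, was lower in H89-treated tumors, with 0.688, 0.517 and 0.681 CPM in NaCl and 0.455, 0.469 and 0.453 CPM with H89 at 13 to 20 counts a tumor (log2 fold change -0.52, edgeR adjusted p = 0.304; 0.594 by DESeq2).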
